A study of Homo sapiens with 79 samples.

Results

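The cells described here were taken from human retinal organoids at days 90 and 200 and were read as photoreceptor and bipolar precursors. A cell was a member when it held at least 5 reads each of at least 2 of 6 markers: VSX1, LHX4, PRDM1, NEUROD4, NHLH1 and SSTR2. Cells with at least 5 reads of 2 or more of the rod genes NRL, GNAT1 and NR2E3 were left out, as were cells with at least 5 reads of 3 or more of the cone genes ARR3, PDE6H, GUCA1A, MPP4, GNGT2, SLC24A2 and RD3. These criteria left 148 of the 1398 cells of the 2 days, out of 1976 cells in all. The reads of these 16 genes chose the cells, so their levels are given as a description, and no test is made of them.

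Rods, cones and bipolar cells are born from dividing retinal progenitors through a shared stage that carries the homeobox factor OTX2. In that stage PRDM1, a transcriptional repressor, holds cells in the photoreceptor fate, and VSX1 and LHX4 are homeobox factors of the bipolar lineage, with LHX4 also found in young cones. NEUROD4 and NHLH1 are basic helix-loop-helix factors of neurons that are leaving the cell cycle, and SSTR2 is a receptor for the peptide somatostatin. A maturing ON bipolar cell later takes up the glutamate receptor GRM6, the kinase PRKCA and the channel TRPM1.

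The organoids were grown from the H9 human embryonic stem cell line with a CRX-GFP reporter, so all groups share 1 line and 1 reporter. All received the kinase inhibitor Y27632 in the first days and, later on, foetal calf serum, the thyroid hormone T3, taurine and retinoic acid. Organoids were collected on days 60, 90 and 200, dissociated and loaded onto microfluidic chips that capture single cells, and no sort by cell type is named in the labels. Day 90 had 1 chip and day 200 had 2, called chip a and chip b, and day 60, used only for side values, had 1. With 1 chip at day 90 there is no replicate error for that day, and the day and the chip cannot be told apart. The sources used here do not say whether the chips came from separate cultures.

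Values are read counts scaled to a total of 1000000 reads in the same cells (CPM), taken on reads summed over the cells of a class on a chip. Where 3 values follow each other, they are those of day 90, chip a and chip b in this order. The members held 12710716 reads at day 90 and 9884819 and 9490596 on the chips of day 200, so that 3 reads, the floor used for a gene with none, stood for 0.236, 0.303 and 0.316 CPM. The median member had 192523, 230945 and 181754 reads, and 3804, 2347.5 and 3523 genes with a read. Chip a thus had the most reads and the fewest genes per cell, which was also so for its other cells. All intervals are exact 95% intervals (Poisson for CPM, Clopper-Pearson for shares). They cover counting error at most and leave out the spread between cells and between chips. Several reads can stem from 1 molecule where no molecular identifier was used, so the Poisson intervals can be too narrow even for counting error. Of the members, 1 of 148 was called a doublet, on chip a, but the caller marked 0.303% and 0.262% of the cells at day 90 and on chip b and so told little there.

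Precursor cells were 65 of 661 cells at day 90, or 9.83% (7.67 to 12.4). On chip a they were 38 of 356, or 10.7% (7.67 to 14.4), and on chip b 45 of 381, or 11.8% (8.75 to 15.5). The criteria set these shares, and with 1 chip at day 90 they give no comparison of the days. They came from 17, 17 and 19 of the 20 capture columns of the chips, with at most 7 in 1 column. Before the cone and rod genes were used, 257 cells held at least 2 of the markers. Of these, 72 were left out by the cone genes alone, 18 by the rod genes alone and 19 by both. The number left out was 72 at day 90 and 15 and 22 on chips a and b. Most members were far from the read limit, with a median of 67 reads of their second-highest marker. Of the members, 8 had 5 to 7 reads of it, and 59 cells that were not members had 2 to 4. Near the limit for the excluding genes, 21 members held 2 cone genes and 40 held 1 rod gene, while 69 held no cone gene.

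The label was checked with OTX2, which the criteria did not use. OTX2 reached 5 reads in 118 of 148 members, or 79.7% (72.3 to 85.9), against 80.6% of the 273 cells that met the cone criterion and 87.0% of the 123 that met the rod criterion. In the 903 remaining cells the share was 29.5%. By chip, OTX2 reached 5 reads in 60 of 65 members at day 90, 24 of 38 on chip a and 34 of 45 on chip b. The share was thus lower on both day 200 chips than on the day 90 chip. Summed over members, OTX2 stood at 1268 CPM at day 90 and at 958 and 1028 CPM on chips a and b. The cone cells had 716, 620 and 623 CPM, and the remaining cells 228, 188 and 80.6. By summed level, members were therefore the class with the highest OTX2 on every chip, ahead of rod cells at 1035, 776 and 729 CPM. By share of cells with 5 reads this order did not hold at day 200. Rod cells had OTX2 in 31 of 38 on chip a and 23 of 28 on chip b. Cone cells had it in 43 of 70 and 39 of 45. The summed level also rests in part on single cells, and 1 member on chip b was at 10391 CPM. The nuclear receptor RORB, which acts upstream of rod genes, was at 373, 459 and 556 CPM in members but set them apart less. It reached 5 reads in 68.9% of members, 53.7% of the remaining cells, 56.8% of cone and 58.5% of rod cells, and at day 90 in 67.7% of members and 60.8% of the remaining cells. CRX, the homeobox factor that turns on photoreceptor genes, was at 2.99, 0 and 0.632 CPM, but its row was low in cones too, at 17.6, 22.5 and 33.6 CPM. NEUROD1, a factor of photoreceptors, reached 5 reads in 68 of 148 members (45.9%), compared with 78% of cone and 75.6% of rod cells. RAX2, also set for this check, reached 5 reads in only 2 of 65 members at day 90. It was lower in members than in rod cells on all 3 chips by the size rule given below.

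The label held less well for a minority of members. OTX2 was under 5 reads in 30 of them, of which 19 held none. Of these 30 members, 14 were on chip a and 11 on chip b. Members with at least 3 of the markers had OTX2 in 70 of 77 cells (90.9%), and members with only 2 of the markers in 48 of 71 (67.6%). Horizontal and amacrine genes were also present: 16 members (10.8%) held 5 reads of at least 2 of PROX1, ONECUT2, TFAP2A, TFAP2B, GAD1 and GAD2, of which 12 had OTX2 as well. In the remaining cells the figure was 72 of 903 (7.97%). The 12 genes of this list summed to 383, 492 and 369 CPM in members, above the 314, 278 and 248 of the remaining cells and the 170, 173 and 121 of cone cells. PROX1, a homeobox factor of horizontal, amacrine and bipolar cells, reached 5 reads in 18 of 45 members on chip b (40.0%) against 54 of 275 remaining cells (19.6%), but in 2 of 38 against 25 of 222 on chip a. ONECUT2 was in 19.6% of all members and 6.64% of the remaining cells. PTF1A, LHX1 and SLC32A1, which mark horizontal or inhibitory amacrine cells, had no read in any member. TFAP2A, an amacrine and horizontal factor, stood at 231 CPM on chip a, where 1 cell gave 58.1% of its reads, and at 10.6 and 19.5 CPM elsewhere. The part of such cells in the results below was not tested, apart from the values given with only OTX2-positive members.

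The markers were shared out unevenly. NEUROD4 passed in 107 of 148 members, LHX4 in 96, VSX1 in 81, SSTR2 in 66, NHLH1 in 35 and PRDM1 in 27. VSX1 (chr20:25070885-25082141, minus strand) passed in 40 of 65 members at day 90, 19 of 38 and 22 of 45 on chips a and b. LHX4 (chr1:180230264-180278984, plus strand) passed in 42, 21 and 33 members, and NEUROD4 (chr12:55019974-55030017, plus strand) in 47, 25 and 35. PRDM1 (chr6:105993463-106109939, plus strand) passed in 17, 4 and 6 members. That is 26.2% at day 90 against 10.5% and 13.3%, with intervals that overlapped. NHLH1 (chr1:160367071-160372846, plus strand) passed in 18, 6 and 11, and SSTR2 (chr17:73165010-73176633, plus strand) in 27, 15 and 24. In the annotation LHX4 overlaps ACBD6 and PRDM1 overlaps ATG5 on the opposite strand. The sources do not state that reads were counted by strand, so reads in those overlaps cannot be told apart.

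**Figure D1:**
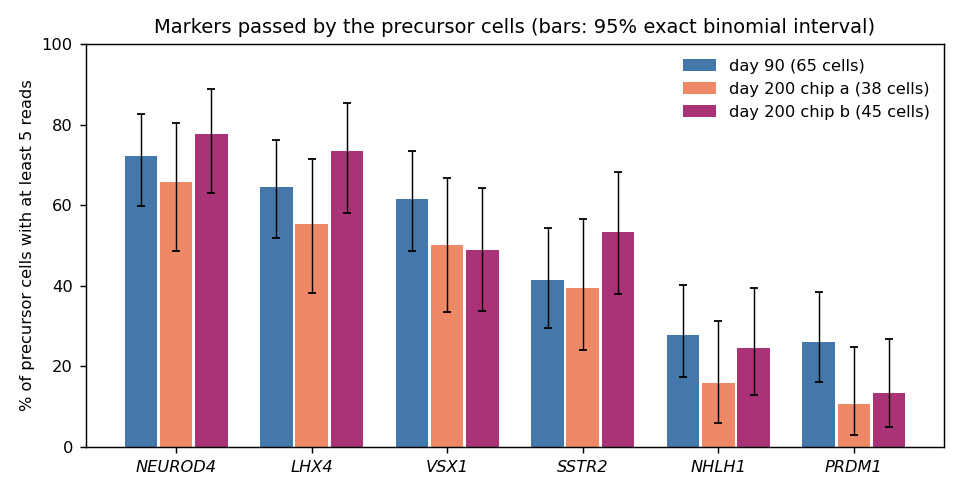
The bars give the percent of precursor cells with at least 5 reads of each marker at day 90 and on day 200 chips a and b, with exact 95% binomial intervals. NEUROD4 and LHX4 passed in most members of each chip, and PRDM1 in 26.2%, 10.5% and 13.3%.

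Most members combined a bipolar-lineage factor with NEUROD4. The commonest sets were LHX4 with NEUROD4 in 19 cells, VSX1 with LHX4 and NEUROD4 in 15, and VSX1 with NEUROD4 in 10. VSX1 or LHX4 passed in 123 of 148 members, and only 5 members were chosen by NHLH1 and SSTR2 alone. The number of markers was 2 in 71 members, 3 in 46, 4 in 25, 5 in 4 and 6 in 2. On chip a 25 of 38 members had just 2 of the markers, against 26 of 65 at day 90. Over all 1398 cells, 82 held both VSX1 and LHX4, which is 51.2% of the 160 VSX1 cells and 40.6% of the 202 LHX4 cells. NHLH1 and VSX1 were found together in 20 cells, or 20.8% of the 96 NHLH1 cells. PRDM1 and VSX1 shared 32 cells, or 34.8% of the 92 PRDM1 cells. Whether some of these sites held more than 1 cell was not tested.

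The summed level of each marker on each chip gives the size of these signals. VSX1 stood at 666 CPM (651 to 680) at day 90, 535 (521 to 550) on chip a and, lowest, 209 (200 to 219) on chip b. On chip a 1 cell gave 31.6% of the VSX1 reads, and the highest single cell was at 11091 CPM. LHX4 was even across the chips at 307, 356 and 387 CPM, and NEUROD4 was at 353, 381 and 593. PRDM1 was at 97.9, 85.9 and 68.5 CPM, with 61.1% of the chip b reads in 1 cell. NHLH1 was at 52.2, 231 and 101 CPM, and SSTR2 at 189, 495 and 183. SSTR2 and NHLH1 were both highest on chip a, where only 15 and 6 cells carried them. The peptide gene SST, whose product SSTR2 binds, had at most 0.105 CPM in members. In the remaining cells VSX1 was at 12.4, 23.4 and 1.66 CPM and LHX4 at 4.66, 8.60 and 15.9, which is what the criteria select for.

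**Figure D2:**
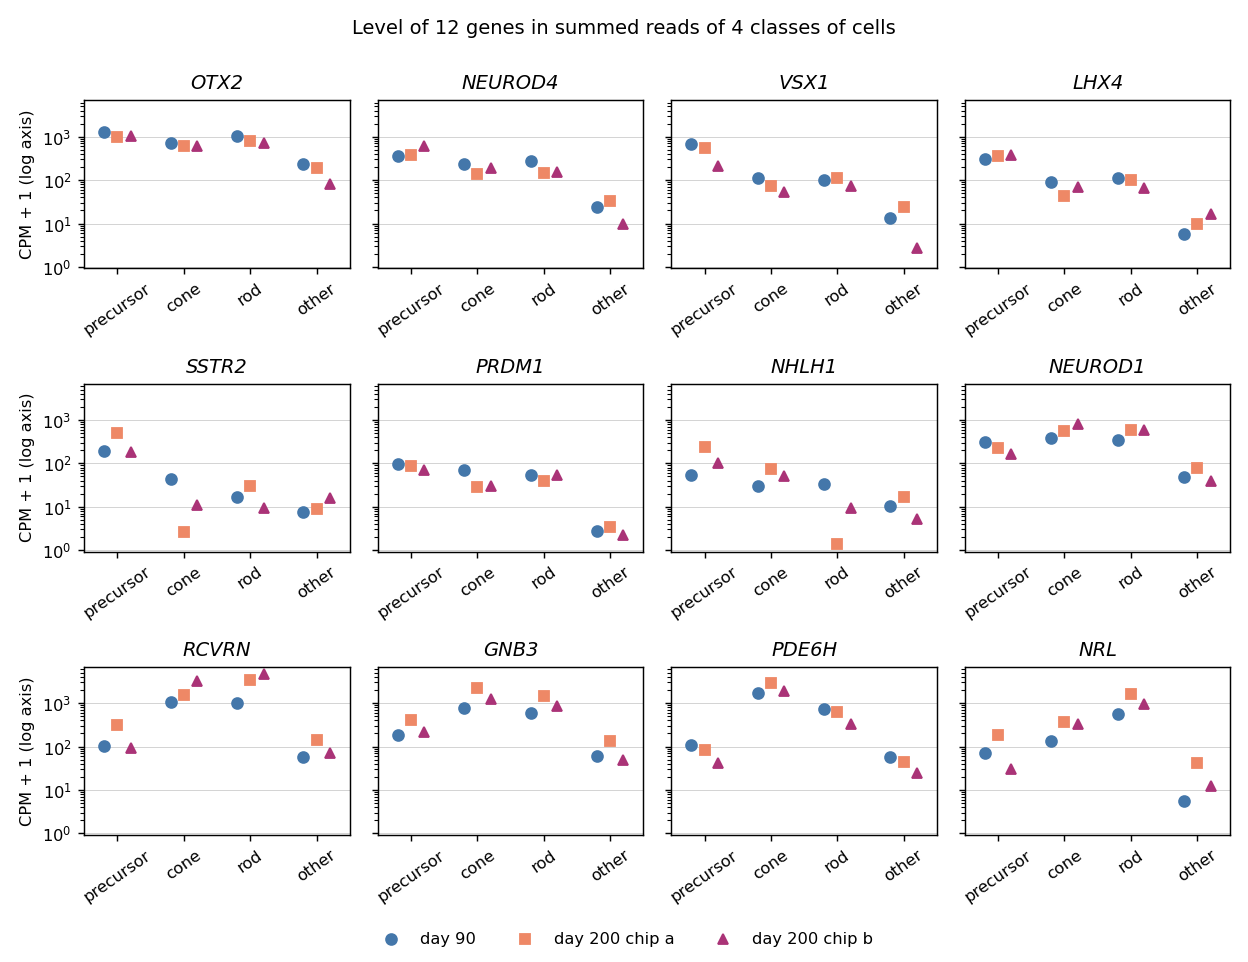
Each point is the level (CPM + 1, log axis) of 1 of 12 genes in the summed reads of precursor, cone, rod or other cells of 1 chip, with circles for day 90, squares for chip a and triangles for chip b. OTX2 is highest in precursor cells on every chip, at 1268, 958 and 1028 CPM, while their RCVRN, GNB3, PDE6H and NRL lie between the rod cells and the other cells.

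Members with VSX1 were compared with members without it in the genes they carried. Members without VSX1 had to pass 2 of the other markers, which favours NHLH1 among them. NHLH1 passed in 12 of 81 members with VSX1 and in 23 of 67 without. OTX2 reached 5 reads in 71 of 81 and in 47 of 67. The part of the criteria in the differences given here was not tested. The genes named in this paragraph and the next were chosen after their values were seen. IRX6 (chr16:55324203-55330756, plus strand), a homeobox factor of cone bipolar cells, reached 5 reads in 28 of 81 members with VSX1 and in 3 of 67 without (34.6% and 4.48%). Of the 8000 genes with 5 reads in at least 12 members, IRX6 had the largest such difference. CA10 (chr17:51630313-52160017, minus strand), a secreted partner of neurexins, followed as the 5th with 22 of 81 against 2 of 67. NETO1 (chr18:72742314-72868146, minus strand), a glutamate receptor subunit partner, was the 21st with 22 of 81 against 4 of 67. The direction was the same on every chip for all 3 genes, with 41, 15.8 and 22.9 percentage points for IRX6. As summed levels, IRX6 was at 130, 97.9 and 69.1 CPM in members with VSX1 and at 4.72, 2.78 and 3.97 CPM in members without.

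Taken as a set, at least 1 of IRX6, CA10 and NETO1 was found in 44 of 81 VSX1 members, or 54.3% (42.9 to 65.4), and in 8 of 67 members without VSX1, or 11.9% (5.30 to 22.2). By chip the shares were 65%, 42.1% and 45.5% with VSX1 and 8.00%, 21.1% and 8.70% without. Cone cells had 15.8% and rod cells 20.3%, and the remaining cells 3.99%. All 3 genes were present together in 8 members, each of them with VSX1. PTPRD, a receptor phosphatase, was in 42 of 81 against 19 of 67. The cyclin CCND1, which drives entry into S phase, went the other way with 9 of 81 against 23 of 67, the 6th lowest of the 8000 genes. Over all these genes the median difference was -0.571 percentage points, with 26 genes at least 20 points higher with VSX1 and 19 at least 20 points lower. Members with VSX1 were read slightly less deeply, at a median of 186995 against 209942 reads.

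Outside the members the division was seen in part. Among cells that met the cone or rod criterion, those with VSX1 held CA10 in 9 of 50, NETO1 in 11 of 50 and IRX6 in 8 of 50. Those without VSX1 held CA10 in 7 of 297, NETO1 in 8 of 297 and IRX6 in 21 of 297. For IRX6 the intervals overlapped (7.17 to 29.1 and 4.43 to 10.6). FEZF2, a zinc finger factor of bipolar subtypes, was in 19 of 50 against 13 of 297. Within members FEZF2 was in 24 of 81 with VSX1 and 11 of 67 without, with intervals that overlapped (20.0 to 40.8 and 8.49 to 27.5). Split by LHX4, it was in 30 of 96 members with it and 5 of 52 without. Among the cells that were neither members nor cone or rod cells, 29 had VSX1. NETO1 was found in none of these 29 cells, CA10 in 1 and IRX6 in 2.

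**Figure D3:**
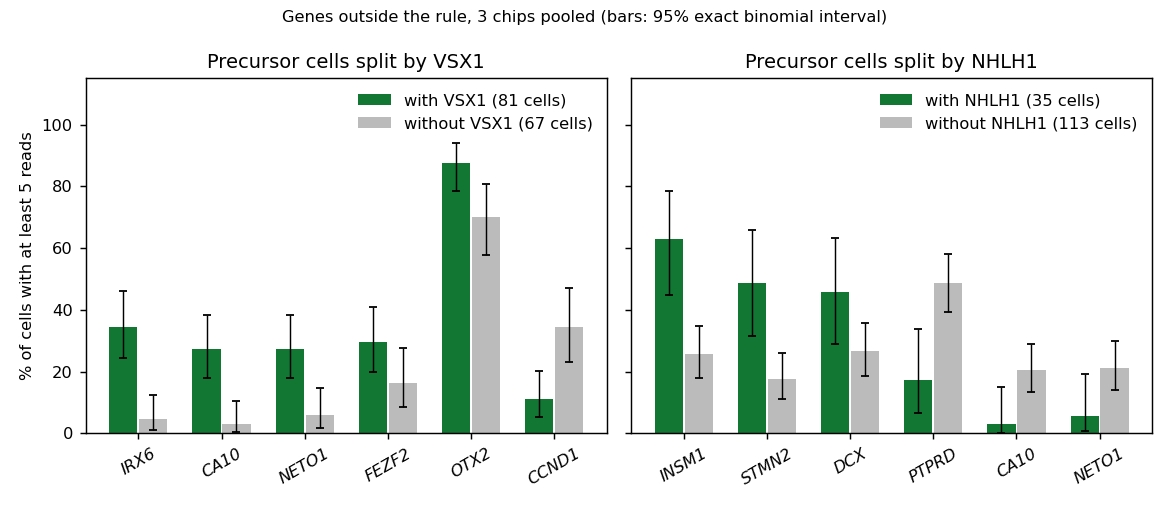
The bars give the percent of precursor cells of the 3 chips with at least 5 reads of genes that the criteria did not use, in 81 members with VSX1 and 67 without (left) and in 35 with NHLH1 and 113 without (right), with exact 95% binomial intervals. IRX6, CA10 and NETO1 have higher shares with VSX1, and INSM1 and STMN2 with NHLH1.

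Members with NHLH1 were compared with those without it in the same way. Some of them passed VSX1 as well, so the NHLH1 and VSX1 splits share cells. Members without NHLH1 had to pass 2 of the other markers, which favours VSX1 among them. It passed in 12 of 35 members with NHLH1 and in 69 of 113 without. INSM1 (chr20:20368104-20370949, plus strand), a zinc finger factor of cells in their last division, was in 22 of 35 members with NHLH1 and 29 of 113 without (62.9% and 25.7%). This was the largest difference of the 8000 genes, but it was 45 points at day 90, 36.9 on chip b and only 1.04 on chip a. STMN2, a microtubule protein of growing axons, was the 6th with 17 of 35 against 20 of 113. DCX, a microtubule protein of migrating neurons, was in 16 of 35 against 30 of 113, with intervals that overlapped (28.8 to 63.4 and 18.7 to 35.7). The VSX1-associated genes were scarce here: CA10 was in 1 of 35 against 23 of 113, NETO1 in 2 of 35 against 24 of 113 and IRX6 in 4 of 35 against 27 of 113. PTPRD had the lowest difference of the 8000 genes, with 6 of 35 against 55 of 113. Since the criteria bear on how many members on each side hold VSX1, nothing is read from these lower shares. The NHLH1 members held slightly more reads and genes, with medians of 219252 reads and 3632 genes against 192523 and 3282. The median difference over the 8000 genes was 1.47 points, with 125 genes at least 20 points higher. Outside the members INSM1 was in 17 of 61 cells with NHLH1 and in 106 of 1189 without, STMN2 in 24 of 61 against 179 of 1189 and DCX in 22 of 61 against 294 of 1189. The lower shares with NHLH1 were not seen there: NETO1 was in 3 of 61 against 25 of 1189 (4.92% and 2.10%), CA10 in 1 of 61 against 24 of 1189 (1.64% and 2.02%) and PTPRD in 17 of 61 against 368 of 1189.

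PRDM1 members were few, so their values rest on 27 cells. Of these, 17 were of day 90, as were 65 of all 148 members, so the sides of this split differ in their chips. The chips are pooled here, and their part in the differences was not tested. SYT4, a synaptotagmin, was in 13 of 27 with PRDM1 and 21 of 121 without. GNB3, the transducin beta subunit of cones and ON bipolar cells, was in 20 of 27 against 53 of 121. The Notch target HES1 was in 12 of 27 against 75 of 121, but its summed level in members also differed between the chips, as given below. In a split of this size 136 of the 8000 genes were at least 20 points higher and 78 at least 20 points lower.

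Bipolar regulators were present at modest levels and did not pass the size rule in any direction between the days. Of the 9 listed, BHLHE23 was not analysed here. FEZF2 was at 44.8, 27.7 and 84.2 CPM, IRX6 at 77.7, 46 and 36.2, and BHLHE22, a factor of OFF bipolar cells, at 32.3, 26.9 and 53.3. ISL1, needed in ON bipolar cells, reached 5 reads in 0 members at day 90 and in 1 on each day 200 chip.

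Genes of bipolar function were found in some members only, mostly 1 or a few at a time. GRM6 had 5 reads in 6 of 65 members at day 90, 5 of 38 and 7 of 45 on chips a and b. Its summed level was 22.2 CPM (19.7 to 24.9), 142 (134 to 149) and 87.5 (81.6 to 93.6). The median member held no GRM6 read on any chip, and the highest was at 803, 4745 and 1650 CPM. PRKCA was in 5 members on each chip, at 17.3, 79.1 and 43.5 CPM. GRM6 and PRKCA were both present in 4 members, all of day 200. CA10 was at 47, 206 and 59.4 CPM and NETO1 at 44.6, 46.8 and 45.5. CABP5, a calcium sensor of bipolar terminals, was at 6.92, 24.8 and 57.3 CPM, below the rod cells at 32.8, 257 and 253. PCP2, a modulator of G proteins in rod bipolar cells, was in 7 of 38 members on chip a at 21.0 CPM. It had no read at day 90 and was at 1.05 CPM on chip b. TRPM1 was at 3.15, 0.202 and 0.738 CPM, under the 59.5, 28.5 and 8.54 of the remaining cells, and NYX had no read. In a panel of 11 genes (GRM6, PRKCA, CABP5, GRIK1, RGS11, PCP2, CA10, NETO1, IRX6, BHLHE22 and FEZF2), 97 of 148 members held at least 1 gene at 5 reads, 52 at least 2 and 34 at least 3. The panel was counted in members alone, so these counts do not set members apart from other classes. The 13 bipolar effector genes with a row summed to 193, 651 and 340 CPM in members. They summed to 170, 534 and 553 CPM in rod cells, 173, 261 and 262 in cone cells and 119, 135 and 102 in the remaining cells.

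Some genes of new neurons stood higher in members than in cone cells, but few passed the size rule. Of 8 neurogenic genes that could be compared, INSM1 alone was higher than in cone cells on all 3 chips. Of 8 compared with rod cells, none was higher. The 10 young neuron genes summed to 1868, 2197 and 1952 CPM in members and to 1821, 2015 and 2038 in cone cells. SOX4, a factor of differentiating neurons, was at 5699, 4109 and 4511 CPM, against 3062, 2873 and 2807 in cone cells and 3080, 2316 and 2133 in the remaining cells. INSM1 stood at 163, 55.1 and 69.6 CPM in members, at 38.6, 21.2 and 11.7 in cone cells and at 24, 29 and 15.2 in rod cells. SOX11, a relative of SOX4, was at 328, 392 and 207 CPM against 183, 73.9 and 107 in cone cells. GADD45G, a growth arrest gene, was at 376, 810 and 432 CPM and did not stand above cone cells on chip b. MFNG, a modifier of Notch receptors, was low throughout at 28.2, 3.14 and 30.0 CPM. The determination factors of earlier steps were rare: ATOH7 had 5 reads in 2 members and NEUROG2 in 6. The 11 genes of S phase and mitosis summed to 151, 261 and 90.6 CPM in members and to 678, 529 and 213 in the remaining cells. HES1 was at 548, 749 and 1668 CPM in members and at 1585, 1768 and 2049 in the remaining cells, and the ligand DLL3 at 9.99, 14.9 and 43.2.

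Set against cone cells within each chip, members had fewer genes that were higher than lower. A gene counted when log2(CPM + 5) differed by at least 1 in the same direction on all 3 chips, with reads in at least 20% of the cells of the higher class. Of 5017 genes, 26 were higher in members (0.518%) and 114 lower (2.27%). These counts describe classes that the criteria defined, and nothing is read from them about the members. The 10 highest held the markers SSTR2, VSX1 and LHX4, followed by TATDN3, LIN7A, PTPRD, CRYBG3, NETO1, CSRP2 and ANK3. LIN7A, a scaffold of synapses and cell junctions, was at 224, 242 and 127 CPM in members and 63, 77.5 and 42.9 in cone cells. PTPRD was at 191, 253 and 229 CPM against 65.3, 93.3 and 69.8, and CSRP2, a LIM protein, at 210, 749 and 744 against 81.2, 111 and 175. INSM1 and ONECUT2, the latter at 155, 106 and 36.8 CPM against 73.7, 32.6 and 8.75, were the other listed genes that were higher.

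Against rod cells, 17 of 4892 genes were higher (0.348%) and 86 lower (1.76%). The 10 highest were SSTR2, TMEM126A, VSX1, LHX4, SNHG12, PCNT, CDC37L1, NINJ1, LUZP1 and NRXN3. NRXN3, a presynaptic adhesion protein, was at 151, 272 and 348 CPM in members and 63.3, 107 and 77.4 in rod cells. Cells that met both criteria, 49 in all, stood in both reference classes. With them left out the count above rod cells became 36, and the count below became 44.

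Genes of working photoreceptors were among those lower in members. Of 14 shared photoreceptor genes that could be compared, 11 were lower than in cone cells and 10 lower than in rod cells, and none was higher. Over all genes compared, 2.27% were lower than in cone cells and 1.76% lower than in rod cells. The criteria kept cells with several cone or rod genes out of the members and set the reference classes by them. Nothing is therefore read from these counts about the members. RCVRN, the calcium sensor recoverin, was at 102, 315 and 90.5 CPM in members, 1082, 1502 and 3285 in cone cells and 985, 3364 and 4592 in rod cells. PRPH2, a structural protein of outer segment discs, was at 6.92, 11.5 and 4.21 CPM against 177, 246 and 294 in cone cells. SAMD7, a repressor that acts in rods, was at 2.67, 0.506 and 0.211 CPM against 158, 226 and 229 in rod cells. PDE6G, the inhibitory subunit of the rod phosphodiesterase, was at 0.0787, 0.910 and 0.105 CPM against 86.0, 902 and 84.8. GNB3 was at 180, 410 and 213 CPM, below cone cells at 752, 2221 and 1259 but above the remaining cells at 60.9, 134 and 49.3. Among the genes used by the criteria, PDE6H had 106, 82.0 and 41 CPM in members and NRL 71.6, 188 and 29.4, so members were not free of them. GNAT1 was at 1.42, 3.84 and 9.69 CPM.

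Ribbon synapse genes, which both photoreceptors and bipolar cells use, were partly shared. Of 11 compared, 6 were lower in members than in cone cells and 4 lower than in rod cells. The limit given for the photoreceptor genes holds for these counts too. SYT1 was at 425, 676 and 646 CPM in members, near cone cells at 563, 686 and 699. RIMS2 was at 299, 888 and 412 CPM, below cone cells at 970, 1884 and 1817. STX3, the syntaxin of ribbon synapses, was at 254, 185 and 208 CPM against 566, 971 and 645. CTBP2, whose long form builds the ribbon, was at 171, 224 and 215 CPM and did not pass the rule against either class. The young neuron genes STMN1, at 894, 1332 and 1133 CPM, and DCX, at 213, 78.6 and 182, did not pass it either.

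Between day 90 and day 200 the lineage factors of the members did not pass the size rule. The rule asked for a difference of at least 1 in log2(CPM + 5) between each day 200 chip and day 90, with reads in at least 20% of the members of the higher chips. Of 7220 genes, 191 were higher at day 200 (2.65%) and 342 lower (4.74%), and the median gene differed by -0.06 and -0.04. None of the 6 markers passed, but they chose the members on every chip, so nothing is read from this. Nor did any of the 3 lineage regulators, 4 bipolar regulators or 10 ribbon synapse genes that could be compared, among them OTX2 and RORB. Of 10 neurogenic genes 1 passed: INSM1 was lower, at 33, 6 and 12 cells with 5 reads. Of 11 shared photoreceptor genes 1 passed: AIPL1, a chaperone of phosphodiesterase, was lower at 55.9, 8.09 and 8.22 CPM, while in cone cells it was at 411, 783 and 386. The rod transducin subunit GNGT1 was lower as well, from 55.2 CPM, of which 1 cell gave 63.2%, to 0.303 and 4.74. The remaining cells of the same chips differed about as much, by -2.83 and -2.65 against -3.51 and -2.63 in members. Of 3 bipolar effector genes 1 passed: GRM6 was higher by 2.43 and 1.77. This difference rests on few cells, since GRM6 reached 5 reads in 6 of 65, 5 of 38 and 7 of 45 members. The highest single member was at 803, 4745 and 1650 CPM, and the median member held no GRM6 read. Whether the members had matured was not tested, and the GRM6 difference in the remaining cells is not reported here.

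The listed group with the most genes higher at day 200 was that of Müller glia, the support cells of the retina. Of 11 Müller glia genes 5 were higher, namely GPX3, WIF1, TF, SLC1A3 and IFITM3, and VIM, the intermediate filament vimentin, was lower. GPX3, a secreted glutathione peroxidase, was at 27.4 CPM at day 90 and at 991 and 657 CPM on chips a and b, with 8, 15 and 17 members at 5 reads. WIF1, a secreted Wnt inhibitor, was at 19.7, 199 and 232 CPM, in 7, 10 and 18 members. These genes were higher in the other cells of the same chips too. There GPX3 differed by 5.34 and 2.94 and WIF1 by 3.00 and 2.48, compared with 4.94 and 4.35, and 3.05 and 3.26, in members. SLC1A3, the glial glutamate transporter, went from 9.68 CPM to 55.8 and 90.5, of which 1 cell on chip b gave 63%. TF, the iron carrier transferrin, went from 110 to 731 and 520 CPM, with 89.5% of the day 90 reads and 77.4% of the chip b reads in 1 cell. The 12 Müller glia genes summed to 4200, 6056 and 7510 CPM in members, to 2672, 2653 and 3318 in cone cells and to 7156, 15354 and 12287 in the remaining cells. The part of glial RNA in the members' values was not tested.

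Pigment genes were lower at day 200 in members and in the remaining cells. Of 7 pigment epithelium genes 3 were lower at day 200: the melanin genes DCT, PMEL and TYRP1. DCT was in 34 of 65 members at day 90, at 488 CPM, and at 29.7 and 46.9 CPM at day 200, and in the remaining cells it went from 933 to 213 and 127. The collagen genes did not pass, and COL3A1 at 998 CPM on chip a came from 1 cell with 99.9% of the reads. Of 7 immediate early genes 2 were higher, JUNB at 84.1, 216 and 307 CPM and FOSB at 154, 322 and 351, and of 6 stress genes SESN2 was lower. HES4, a Notch target, and SOX2, a progenitor factor, were higher, SOX2 at 48.3, 119 and 172 CPM. In the remaining cells SOX2 was at 142, 207 and 228.

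Some of the differences between the days were larger in members than in the remaining cells, though that was not tested. RUNX1T1, a transcriptional corepressor, was at 17.2, 105 and 105 CPM in members, or higher by 2.31 and 2.31, and differed by -0.80 and -0.05 in the remaining cells. RASSF4, a Ras-association protein, was higher by 2.98 and 2.75 in members and by 1.18 and 0.84 in the remaining cells. A2M, a protease inhibitor, was higher by 2.56 and 2.64 and PRELP, a matrix protein, by 2.90 and 2.57, but 1 cell held 52.4% of the A2M reads of chip a and 67.9% of the PRELP reads of chip b. BTRC, ARPC5L and CDH23 completed the 10 highest. Among the lowest, GALNT13, a glycosyltransferase, was at 86.8, 0.101 and 3.58 CPM, a difference of -4.17 and -3.42 against -0.69 and -0.39 in the remaining cells. EAF2, an elongation factor partner, was at 37.1, 0.101 and 1.26 CPM, and RERG, a Ras-like protein, at 44.1, 2.33 and 0. SPATA13 had 62.9 CPM at day 90 and no read at day 200, where the floor was 0.303 and 0.316 CPM, and it was at most 3.66 CPM in the other classes of day 200. It differed about as much in the remaining cells, by -3.05 and -3.85 against -3.76 and -3.76 in members. SAC3D1, TIMM29, SUPV3L1 and C11orf95 were the others of the 10 lowest, beside DCT and GNGT1.

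Restricting the members to those with at least 5 OTX2 reads ended the call for A2M, ARPC5L, CDH23, FOSB, HES4, IFITM3, INSM1, PRELP, RUNX1T1 and SESN2. Requiring that no single cell held over 50% of the reads on a higher chip ended it for A2M, PRELP, SLC1A3, TF, TYRP1, PMEL and GNGT1. Leaving out cells with under 150000 reads or over 10% mitochondrial reads ended it for GRM6 and EAF2, among others, and leaving out called doublets for BTRC. GPX3, WIF1, RASSF4, JUNB, SOX2, VIM, AIPL1, DCT and GALNT13 passed under each of the 12 alternatives tried.

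A row of the table named GFP-Spike, after green fluorescent protein, had reads on the day 200 chips only. Whether it stands for the CRX-GFP reporter or for an added control is not stated in the sources used here. It had no read in any cell of day 60 or day 90. At day 200, 14 of 38 members on chip a held it, or 36.8% (21.8 to 54), and chip b had 18 of 45, or 40.0% (25.7 to 55.7). Cone cells held it in 92.9% and 86.7%, rod cells in 71.1% and 60.7%, and the remaining cells in 30.6% and 11.6%. Members with OTX2 had it in 13 of 24 and 17 of 34 cells, and members without OTX2 in 1 of 14 and 1 of 11. The share of members lay under that of cone cells on both chips, while the intervals of members and rod cells overlapped on chip b. The criteria set these classes by their cone and rod genes, and the cells of a chip are not replicates. Nothing is therefore read from the order of the classes.

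**Figure D4:**
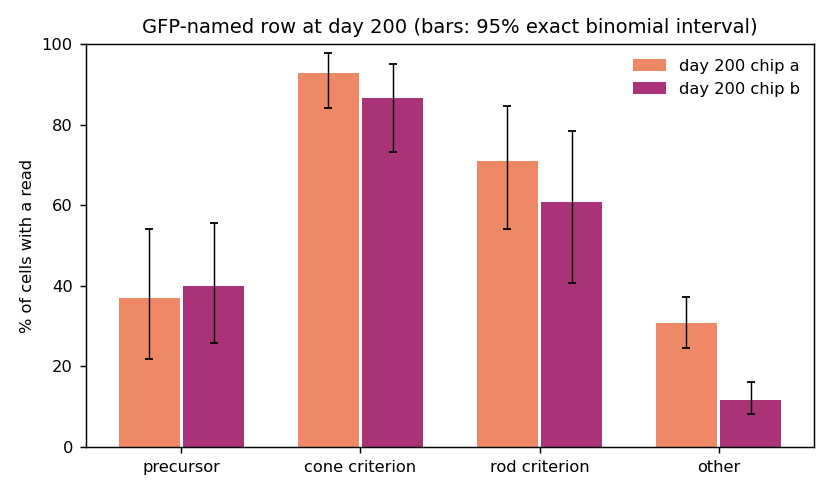
The bars give the percent of cells with a read of the row named for green fluorescent protein in precursor, cone, rod and other cells of day 200 chips a and b, with exact 95% binomial intervals. Precursor cells, at 36.8% and 40.0%, lie under cone cells, at 92.9% and 86.7%, in classes that the criteria set by cone and rod genes.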

How the data were processed

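Single cells of H9 CRX-GFP retinal organoids were captured on Fluidigm C1 chips, amplified with SMART-Seq v4 and sequenced as paired reads of polyadenylated RNA. The authors deposited raw read counts per gene and cell, made with Trimmomatic 0.33, STAR 2.4.0 and HTSeq 0.6 on GRCh38.p7 per the submitters' processing notes, after they had filtered cells. A counting option for strand is not given in the sources used here. The table held 1976 cells and 24415 rows, of which the row named GFP-Spike was kept out of totals, leaving 24414. Of the 40 row barcodes, 38 occurred on all 4 chips, as the barcodes number positions on a chip. No column was left unused (0), and no column and row barcode pair occurred on more than 1 cell of a chip. Spike-in RNA was more concentrated at day 90 than on the other chips, per the study's methods.

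The chips were taken from the labels, and cells were assigned by the rule given with the results. The members, the gene lists and the splits were chosen with earlier results of these data known. Reads were summed per class and chip and scaled to CPM. Genes are named by these rules: the markers and excluding genes, the 4 highest of a list in members, list genes past the size rule, and the 10 highest and lowest of a comparison, beside genes stated to have been chosen after their values were seen. The size rule was a difference of at least 1 in log2(CPM + 5), with reads in at least 20% of cells. No test was made, since cells are not replicates and day 200 gives 1 degree of freedom. Positions are those of the GENCODE annotation of GRCh38. Python 3.11.15, numpy 2.4.6, pandas 2.3.3, scipy 1.17.1, scanpy 1.11.5 (doublets), matplotlib 3.10.9, and R 4.3.3 with edgeR 4.0.16 (TMM factors of the deposited counts, as an alternative scaling) were used. Of the listed genes, 17 without a row were not analysed here, and values of some listed genes are not reported here.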

Additional observations from a re-analysis of the deposited data

Results flagged for a closer look

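The row named GFP-Spike was used in no comparison between days, and it had reads in precursor cells of day 200 and none at day 90. Over the summed reads of all precursor cells it stood at 198 CPM on chip a, where 36.8% of them held a read. On chip b it stood at 31.2 CPM, and 40.0% held a read.

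Cells of day 60, which lie outside the days described, met the same criteria in 45 of 578 cases, or 7.79% (5.74 to 10.3). Their markers were NHLH1 in 30 of 45, NEUROD4 and SSTR2 in 28 each, VSX1 in 13, LHX4 in 8 and PRDM1 in 6. VSX1 or LHX4 passed in 19 of 45 (42.2%), and NHLH1 and SSTR2 alone chose 12. OTX2 reached 5 reads in 29 of 45 (64.4%). ATOH7, the factor of the first-born retinal neurons, was in 12 of them at 127 CPM, DCX in 36 and STMN2 in 32. IRX6, CA10 and NETO1 reached 5 reads in 0 of 45.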

How the results depend on the processing

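The share of precursor cells depended most on the criteria. Asking for at least 3 of the markers gave 5.90% at day 90 and 3.65% and 6.56% on chips a and b, and using no excluding genes gave 20.7%, 14.9% and 17.6%. Without NEUROD4 as a marker the shares were 7.56%, 6.74% and 7.61%, and without LHX4 chip a had 7.30%. Cells thinned to 50000 reads gave 7.58% on chip a, and leaving out cells with under 150000 reads or over 10% mitochondrial reads gave 12.8% at day 90. The other 30 of 42 alternative shares stayed within the interval of the value reported. Between the days, a pseudocount of 20 CPM gave 95 genes higher and 169 lower, and no minimum share of cells gave 747 and 1273. With 1 of the day 200 chips left out, 722 (without chip b) to 869 (without chip a) genes were higher and 848 (without chip a) to 1416 (without chip b) lower, since the difference then had to hold on a single chip. Of 33 genes followed, 15 passed under all 12 alternatives. Leaving out each chip in turn gave 57 to 153 genes above cone cells and 68 to 140 above rod cells. With cells of both criteria left out of the rod class, 36 genes were above rod cells and 44 below, of which 9 and 38 were among the 17 and 86 reported. The share of members with PRDM1 was 12.0% without day 90 and at most 20.9% with another chip left out. The causes were not tested. No paired analysis was possible because the comparisons come from no test and a number shared by chips marks only a capture column. The number of member cells, 38 to 65 a chip, limits what genes seen in few cells can show.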
